A study of Caenorhabditis elegans with 6 samples.

Results

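The genes described here are 40 genes of *C. elegans* that encode the contractile apparatus of muscle and its attachment to the body wall. They were chosen by name and function, with earlier results of these data known. All 40 of the 40 names were found among the 46904 gene identifiers of the count table. All 40 also passed the filter on low counts, at least 1 CPM (counts scaled to the size of the library) in at least 3 of the 6 libraries, as did 12385 genes in all. The lowest count of any of them was 140, for *tni-1* in a control library. The data are RNA sequencing counts of N2 worms, the wild-type laboratory strain, with 3 libraries from worms on plates that contained 50 µM CGP37157 and 3 libraries from control worms, for which the labels give no treatment. CGP37157 is an inhibitor of the mitochondrial sodium/calcium exchanger. Worms of both groups were moved to their plates as young adults, and RNA of whole worms was extracted at day 5 of treatment. The CGP37157 libraries held 23821727 to 24551795 counts on genes, and the control libraries 21122852 to 21245713. Nothing in the labels says whether replicates were separate cultures, so the p-values given here measure the spread between these libraries.

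In worm body wall muscle, thick filaments of myosin and paramyosin interdigitate with thin filaments of actin, tropomyosin and troponin. The filaments are anchored at M-lines and at dense bodies, and integrins at the base of these structures link them through the basement membrane and the hypodermis to the cuticle. The force of the muscle is passed to the cuticle along this line, and the regular spacing of the filaments in aging worms was one of the features that the study followed in the presence of CGP37157. The comparison given here asks whether the messages of these genes differed between CGP37157 and control worms. The name of body wall muscle covers the list only in part. *myo-1*, *myo-2*, *tni-4* and *tnt-4* are pharyngeal muscle genes, and the actins are used in other tissues as well.

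The muscle genes were slightly lower on average in CGP37157 libraries than in control libraries, but the difference of no single gene passed the test. After scaling of the libraries by TMM, the normalisation behind all levels given here, 39 of the 40 genes had a log2 fold change (CGP37157 over control) below 0, where 52.6% of all 12385 genes tested did. Their median log2 fold change was -0.29, beside -0.014 over all genes tested, and the values ran from -0.56 for *myo-2* to 0.0031 for *unc-45*. In edgeR's quasi-likelihood test, 0 of the 40 were lower at an adjusted p under 0.05, where 0.234% of all genes were, and 0 were higher, where 1.16% were. DESeq2 and edgeR's likelihood ratio test also gave 0 in either direction. At an unadjusted p under 0.05, 1 of the 40, *unc-52*, was lower, where 1.97% of all genes were. The same gene was the 1 of 40 with all 3 CGP37157 libraries below all 3 control libraries, a separation seen in 3.69% of all genes tested. The 40 values come from the same 6 libraries, in which many of these genes varied together, so their shared sign does not count as 40 separate observations. These are whole worms, in which less of these messages in muscle and a larger share of RNA from other tissues cannot be told apart.

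**Figure D1:**
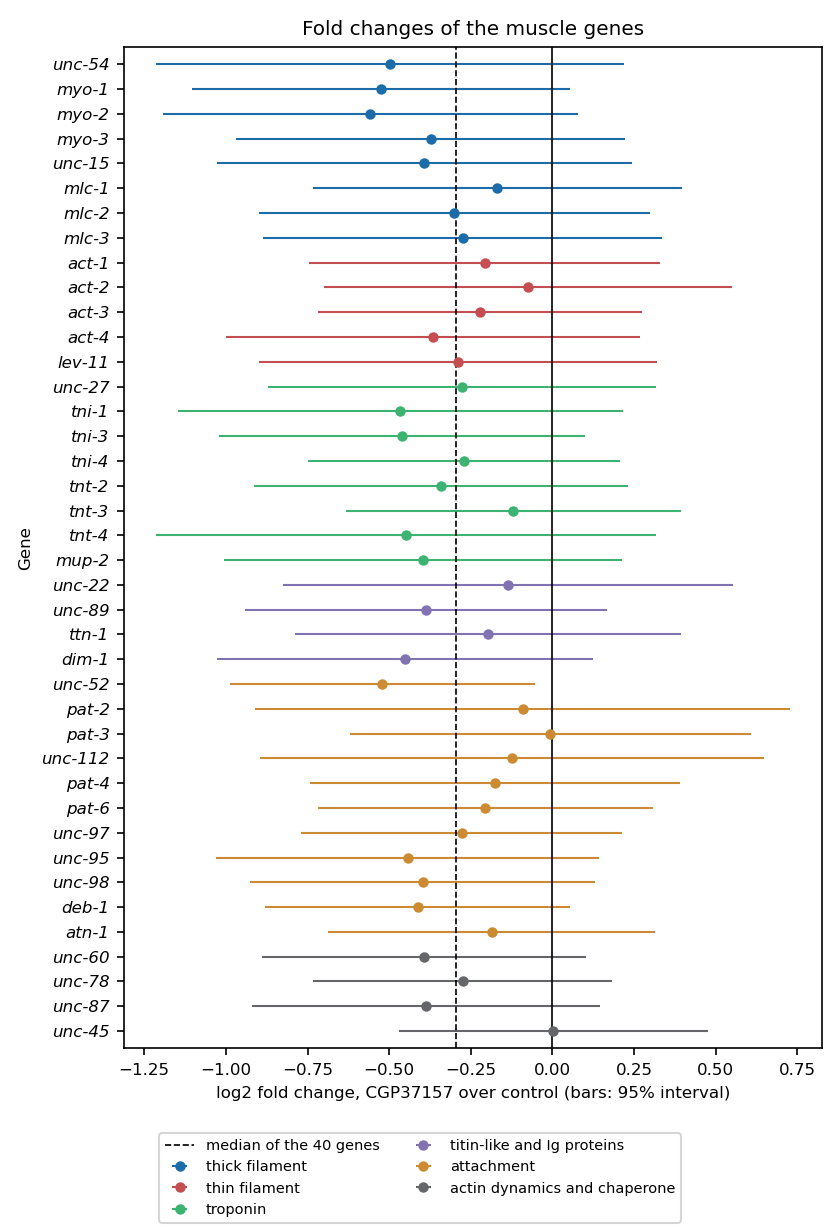
Log2 fold change, CGP37157 over control (x axis), of each of the 40 genes (y axis), coloured by role, with its 95% interval as a bar. The points lie between -0.56 and 0.0031, and 39 of the 40 bars cross 0.

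The 95% intervals of the log2 fold changes show how large a difference the data leave room for. Of the 40 intervals, 39 hold 0, and 30 lie wholly above -1, which is a 50% decrease. The lowest lower bound was -1.21, for *unc-54* and *tnt-4*, and the highest upper bound was 0.73, for *pat-2*. Standard errors ran from 0.21 to 0.37.

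The thick filament genes had a median log2 fold change of -0.38 over 8 genes, all of them below 0. *unc-54*, which encodes the major myosin heavy chain of body wall muscle (chromosome I, 14855901 to 14863482, in the WBcel235 annotation of Ensembl release 115), had 1564, 1543 and 1092 CPM in CGP37157 libraries 1, 2 and 3, against 2052, 2641 and 1236 CPM in control libraries 1, 2 and 3. The third control library lay within the range of the CGP37157 libraries. The log2 fold change was -0.50 with a standard error of 0.32, and the edgeR adjusted p was 0.9999. *unc-15*, which encodes paramyosin, the core protein of the thick filament, had 814.5, 806 and 626 CPM with CGP37157, against 944, 1324 and 680.1 CPM in controls. Again control 3 fell among the CGP37157 values. *myo-3*, the myosin heavy chain of the filament centre (chromosome V, 12226817 to 12234343), had 40.5, 65.6 and 39.3 CPM in CGP37157 worms, against 77.2, 64.2 and 47.1 CPM in control worms, with CGP37157 library 2 above 2 of the 3 controls.

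Both pharyngeal myosin heavy chains had the most negative log2 fold changes of the group. *myo-2* had 69.8, 52.6 and 44.4 CPM in CGP37157 libraries, against 113.0, 78.2 and 54.2 CPM in control libraries, a log2 fold change of -0.56 with a standard error of 0.29. For *myo-1* the values were 49.4, 39.5 and 35.7 CPM with CGP37157, against 82.3, 51.5 and 45.3 CPM in controls, and the log2 fold change was -0.53 with a standard error of 0.26. In both genes control 3 was below CGP37157 library 1, so the groups overlapped. Over the 4 pharyngeal muscle genes the median log2 fold change was -0.49. It was -0.37 over 5 genes taken as body wall markers, *unc-54*, *myo-3*, *unc-15*, *unc-27* and *unc-22*. The difference between these medians was not tested, and whether the 5 genes are also used in the pharynx was not examined. The regulatory light chain *mlc-2*, the most abundant message of the list per kb of exon, had 513, 391 and 349.8 CPM with CGP37157, against 494, 671 and 379 CPM in controls. *mlc-1* and *mlc-3*, the other light chain genes, had log2 fold changes of -0.17 and -0.28. Reads of *mlc-1* and *mlc-2*, which are close copies that lie side by side on chromosome X, may have been split between them by the counting.

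**Figure D2:**
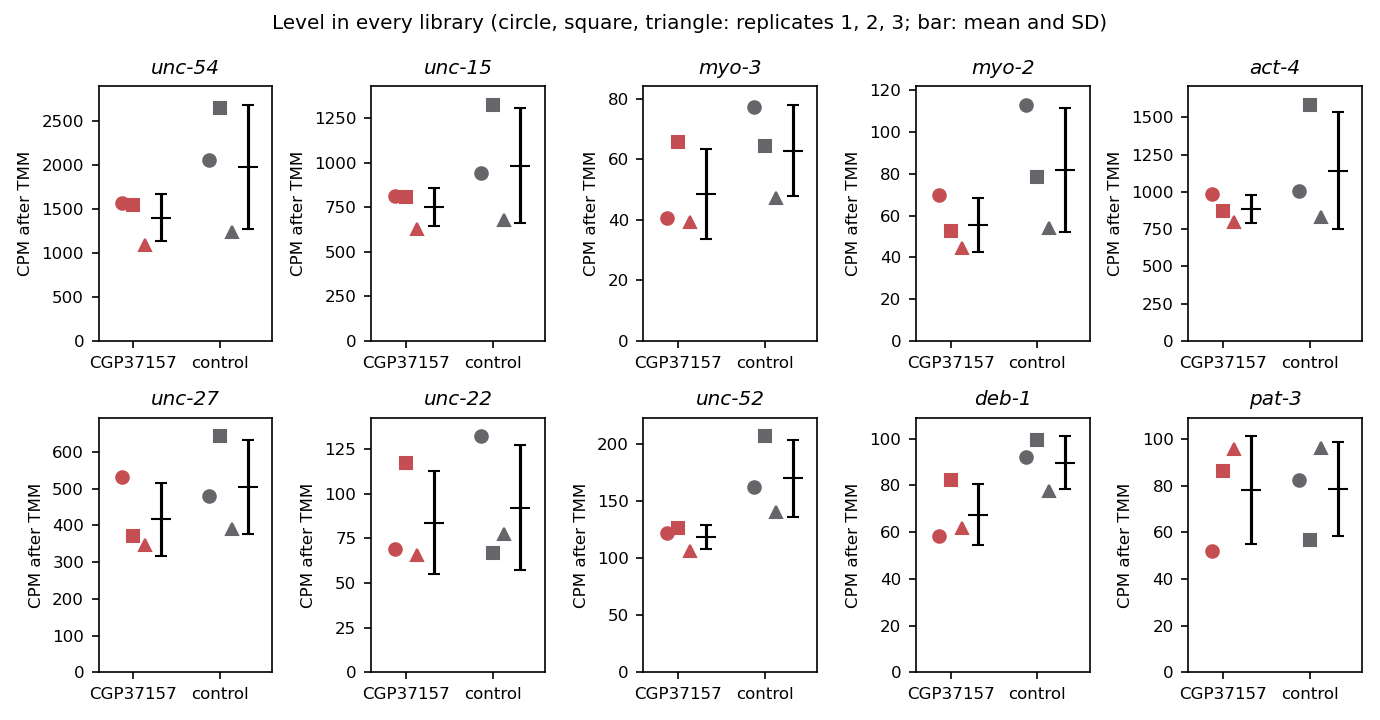
Level in CPM after TMM scaling (y axis, from 0) of 10 genes in each of the 3 CGP37157 libraries (red) and 3 control libraries (grey), with circles, squares and triangles for replicates 1, 2 and 3 and the mean and SD as a bar. Only *unc-52* shows all CGP37157 libraries, 107 to 127 CPM, below all controls, 141 to 207 CPM.

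The relative amounts of the myosins were close in both groups. Per kb of exon, *unc-54* made up 90.7 ± 0.33% of the 4 myosin heavy chain messages in CGP37157 worms and 90.4 ± 2.5% in control worms (SD, n = 3 each). *myo-3* made up 3.21 ± 0.77% with CGP37157 and 3.05 ± 0.65% in controls. The ratio of *unc-54* to *unc-15*, myosin to paramyosin, was 1.03 ± 0.055 with CGP37157 and 1.10 ± 0.098 in controls. These differences were smaller than the SD of the control libraries. That of the *unc-54* to *unc-15* ratio was larger than the SD of the CGP37157 libraries, and the others were smaller than it. Among the 3 light chains, *mlc-2* held 54.1 ± 0.54% with CGP37157 and 55.4 ± 0.28% in controls. Of all shares in the myosin, light chain, actin and troponin families, it was the only one in which the groups did not overlap. The *mlc-2* share depends on how reads were split between *mlc-1* and *mlc-2*, and its difference was not tested.

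The thin filament genes had a median log2 fold change of -0.22 over 5 genes, all below 0. *act-4*, the actin with the highest level per kb, had 986, 868.4 and 800.0 CPM in CGP37157 worms, against 1004, 1583 and 834 CPM in control worms. The high mean of the controls came from control 2, and the other controls lay at or near the CGP37157 values. *act-2* had 716.5, 578 and 828 CPM with CGP37157, against 546, 1004 and 686 CPM in controls, a log2 fold change of -0.075, and *act-1* and *act-3* had log2 fold changes of -0.21 and -0.22. As shares of the 4 actin messages per kb, *act-4* held 39.8 ± 4.2% in CGP37157 libraries and 43.5 ± 4.0% in control libraries, and *act-2* held 39.5 ± 5.1% with CGP37157 and 35.8 ± 4.2% in controls (SD, n = 3 each). Both differences were within 1 SD. The coding sequences of the actin genes are nearly identical, so the split of reads between them is uncertain. *lev-11*, tropomyosin, had 685, 535 and 498 CPM in CGP37157 libraries, against 639, 937 and 521 CPM in control libraries.

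The troponin I and T genes encode parts of the calcium switch of the thin filament. They had a median log2 fold change of -0.37 over 8 genes, all of them below 0. *unc-27*, the most abundant troponin I of body wall muscle, had 531, 369.9 and 347 CPM with CGP37157, against 479, 642 and 390.2 CPM in controls. CGP37157 library 1 was thus above 2 of the 3 controls. *tni-1*, a troponin I of low level and the most negative of the group, had 7.13, 9.98 and 6.29 CPM in CGP37157 worms, against 15.4, 8.13 and 8.76 CPM in control worms, a log2 fold change of -0.47 with a standard error of 0.31. The pharyngeal troponins *tni-4* and *tnt-4* had log2 fold changes of -0.27 and -0.45. For *tnt-4* a single library, control 1 at 20.7 CPM, stood above all the others, which ran from 7.78 to 11.7 CPM with CGP37157 and from 8.60 to 9.62 CPM in the remaining controls. Without control 1 the log2 fold change of *tnt-4* was 0.062. *tni-3*, *tnt-2*, *mup-2* and *tnt-3* had log2 fold changes of -0.46, -0.34, -0.40 and -0.12. *unc-27* made up 83.3 ± 1.8% of the 4 troponin I messages per kb in CGP37157 libraries and 82.6 ± 2.8% in control libraries, and *tnt-2* made up 55.4 ± 1.2% of the 4 troponin T messages with CGP37157 and 54.5 ± 0.81% in controls (SD, n = 3 each). The difference of *unc-27* was within 1 SD of either group. That of *tnt-2* was within 1 SD of the CGP37157 libraries but larger than the SD of the control libraries.

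The titin-like and immunoglobulin-repeat genes had a median log2 fold change of -0.29 over 4 genes, all below 0. *dim-1*, which encodes an immunoglobulin-repeat protein of the muscle cell and had the highest level per kb of the group, had 138, 161 and 121 CPM in CGP37157 worms, against 173, 263 and 139 CPM in control worms. Its log2 fold change was -0.45 with a standard error of 0.26, and control 3 lay within the CGP37157 range. *unc-22*, the giant kinase twitchin, had 68.9, 117 and 65.5 CPM with CGP37157, against 132, 66.9 and 77.7 CPM in controls, so that within each group 1 library stood far above the other 2. *unc-22* shares 93 bases of exon with ZK829.9 on the opposite strand, and the strand setting of the counting is not given in the sources used here. *unc-89*, the obscurin of the M-line, and *ttn-1*, a titin, had log2 fold changes of -0.39 and -0.20. *ttn-1* had the lowest level of the list, 0.487 CPM per kb with CGP37157 and 0.558 CPM per kb in controls, where *mlc-2* had 652 CPM per kb with CGP37157 and 803 CPM per kb in controls.

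The attachment genes showed the widest range, with a median log2 fold change of -0.20 over 11 genes, all below 0. *unc-52* encodes perlecan, the proteoglycan of the basement membrane to which body wall muscle is anchored (chromosome II, 14647321 to 14684456). It had 122, 127 and 107 CPM in CGP37157 libraries, against 163, 207 and 141 CPM in control libraries. All CGP37157 values were below all control values, with means of 119 ± 10.6 CPM with CGP37157 and 170.2 ± 33.7 CPM in controls (SD, n = 3 each), which is 30.3% lower with CGP37157. The log2 fold change was -0.52 with a standard error of 0.21 and a 95% interval of -0.99 to -0.055, and edgeR's unadjusted p of 0.0320 became 0.808 after adjustment over all genes tested. The difference of *unc-52* therefore did not pass the test. Within the 3 pairs of libraries with the same number, the log2 ratios were -0.41, -0.71 and -0.40. Their shared sign follows from the separation of the groups and adds nothing to it. The log2 fold change of *unc-52* was -0.36 without control 2, the setting that brought it closest to 0. Its unadjusted p stayed under 0.05 without control 1 or control 3, but not without control 2 or any of the 3 CGP37157 libraries.

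The integrins *pat-2* and *pat-3* and their partner *unc-112* lay nearer to 0 than the median of the attachment genes and varied widely between replicates. *pat-3*, the beta integrin, had 52.1, 86.3 and 95.8 CPM with CGP37157, against 82.2, 56.7 and 96.2 CPM in controls, a log2 fold change of -0.0059, and *pat-2*, the alpha integrin, had 18.1, 37.5 and 18.8 CPM with CGP37157, against 36.6, 15.1 and 27.5 CPM in controls. *unc-112*, the kindlin that binds the integrin, had 24.5, 47.8 and 27.1 CPM in CGP37157 worms, against 46.3, 20.3 and 41.7 CPM in control worms. In *pat-2* and *unc-112* the same libraries were high, namely CGP37157 library 2 and control 1, and the same were low, namely CGP37157 library 1 and control 2. *pat-4*, *pat-6* and *unc-97*, which encode the integrin-linked kinase, the parvin and the PINCH of the integrin complex, had log2 fold changes of -0.18, -0.20 and -0.28. *unc-95* and *unc-98*, proteins of the dense bodies and M-lines, had values of -0.44 and -0.40.

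The dense body proteins proper are vinculin and alpha-actinin. *deb-1*, vinculin, had 58.2, 82.2 and 61.8 CPM in CGP37157 libraries, against 92.3, 99.4 and 77.4 CPM in control libraries, and only CGP37157 library 2 lay above the lowest control. Its log2 fold change was -0.41 with a standard error of 0.21. *atn-1*, alpha-actinin, the attachment gene with the highest level per kb, had 79.4, 112.3 and 80.9 CPM with CGP37157, against 99.9, 125 and 85.4 CPM in controls, with a log2 fold change of -0.19.

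The genes of actin dynamics and chaperoning included the only value above 0. *unc-45*, the chaperone that folds the myosin head, had 35.1, 40.9 and 47.4 CPM in CGP37157 worms, against 34.3, 46.2 and 42.8 CPM in control worms, a log2 fold change of 0.0031 with a 95% interval of -0.47 to 0.48. *unc-87*, a calponin-like protein that bundles actin and the most abundant of the group per kb, had 284, 310.3 and 254 CPM with CGP37157, against 328, 483 and 298 CPM in controls. *unc-60*, which encodes the actin-depolymerising factor cofilin, had 53.5, 49.0 and 41.9 CPM in CGP37157 libraries, against 63.2, 77.5 and 49.0 CPM in control libraries. Their log2 fold changes were both -0.39, and that of *unc-78*, the partner of cofilin, was -0.27.

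**Figure D3:**
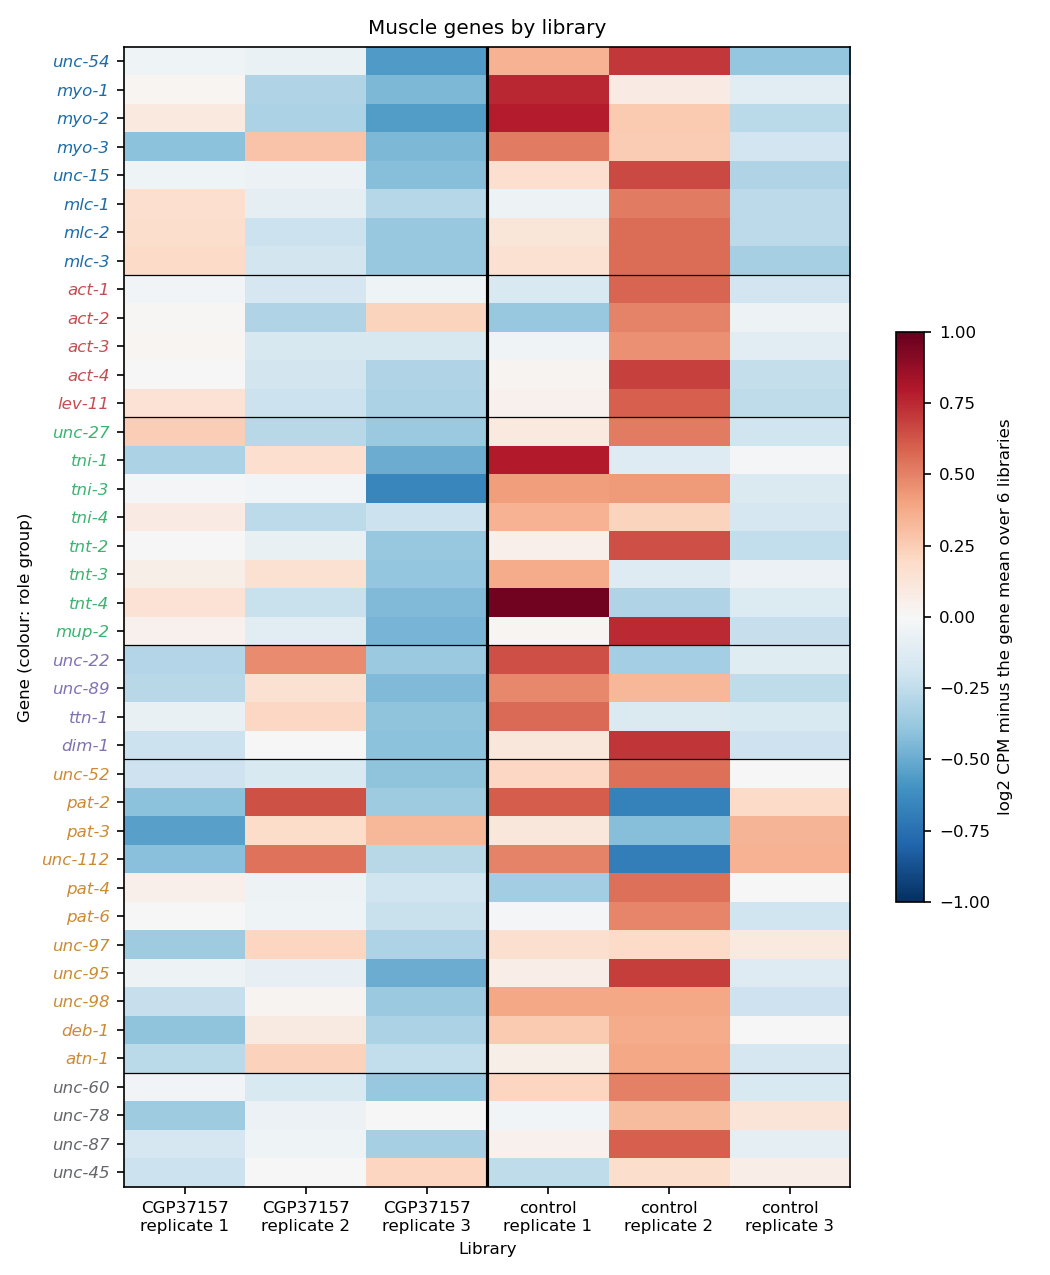
Level of the 40 genes (rows, in groups by role) in the 3 CGP37157 libraries (left) and the 3 control libraries (right), as log2 CPM minus the mean of the gene over the 6 libraries. The third library of each group is blue in most rows, and control 2 is red in the rows of the 24 genes that were highest there.

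Differences between replicates of one group were as large as those between the groups. Control 2 was the highest of the 6 libraries for 24 of the 40 genes, where it was for 28.7% of all genes tested, and control 1 was for 11, where it was for 21.1%. The third library of CGP37157 was the lowest of the 6 for 28 genes, where it was for 14.9% of all genes. In 24 of the 40, the third library was the lowest of its group among both CGP37157 and control worms, against 14.7% of all genes. The coefficient of variation among the 3 libraries had a median of 17.6% in CGP37157 worms, from 5.34% for *act-1* to 44.3% for *pat-2*, and of 29.6% in control worms, from 3.21% for *unc-97* to 51.6% for *tnt-4*. The summed level of the 40 genes was 8902, 8229 and 7149 CPM in CGP37157 libraries, against 9752, 13193 and 7618 CPM in control libraries. The means were 8093 ± 884 CPM with CGP37157 and 10188 ± 2813 CPM in controls (SD, n = 3 each). After scaling, control 2 was far above the other controls, and the lowest control fell within the range of the CGP37157 libraries. The scaled sum of all genes tested was also highest in control 2, at 1227303 CPM, against 886397 to 1047080 CPM in the other libraries. Control 2 had the lowest TMM factor, 0.815. Before scaling, the 40 muscle genes took 0.849, 0.917 and 0.700% of the counts in CGP37157 libraries, against 1.10, 1.07 and 0.791% in control libraries.

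Exon length moved with the differences between control 2 and control 1 and between CGP37157 library 1 and library 2. These pairs of libraries were chosen after seeing the data, and ratios of other pairs were not set against exon length. The 24 genes highest in control 2 had a median exon length of 1.54 kb, and the 11 highest in control 1 one of 6.10 kb. Among the 20 genes with the shorter exons, the median log2 ratio of control 2 to control 1 was 0.47, against -0.021 among the 20 with the longer exons, and the ratio of CGP37157 library 1 to library 2 had medians of 0.15 and -0.25. Over all genes tested, split at the same length of 1.82 kb, the medians were 0.13 and -0.20 for the control ratio and 0.10 and -0.24 for the CGP37157 ratio. Genes of either length had nearly the same log2 fold change between the groups, with medians of -0.29 for the shorter and -0.33 for the longer. With a trend on exon length taken out of every library, an alternative chosen after seeing the data, the median of the 40 genes was -0.31, and *unc-52* had a log2 fold change of -0.54, with an unadjusted p no longer under 0.05.

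**Figure D4:**
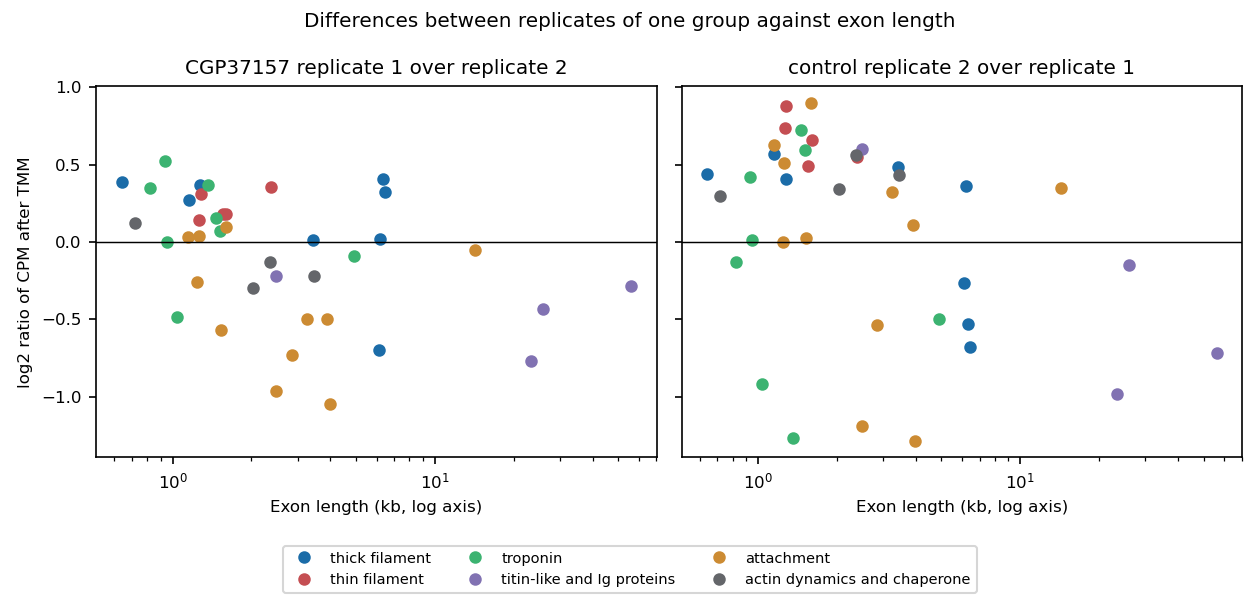
Log2 ratio of CPM between 2 libraries of one group (y axis) against exon length in kb (x axis, log scale) for the 40 genes, coloured by role, with CGP37157 library 1 over 2 at left and control 2 over 1 at right. In both panels the genes with the shorter exons lie higher, with medians of 0.15 and 0.47, than those with the longer exons, with medians of -0.25 and -0.021. These pairs of libraries were chosen after seeing the data.

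Other genes of muscle were described from a list of 30, of which 30 were tested. This list holds troponin C genes and further dense body and M-line proteins. It also holds the calcium release and uptake proteins of the sarcoplasmic reticulum and muscle transcription factors. The median log2 fold change of the list was -0.20, 26 of the 30 were below 0, and 0 passed the test in either direction. *pfn-3*, a profilin, was the 1 with an unadjusted p under 0.05, where 1.97% of all genes tested were lower at that level. It had 20.8, 22.4 and 14.4 CPM in CGP37157 libraries, against 30.57, 30.56 and 23.0 CPM in control libraries. It was the 1 of the 30 with all CGP37157 values below all control values, a separation seen in 3.69% of all genes tested. The log2 fold change of *pfn-3* was -0.55 with an edgeR adjusted p of 0.993.

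The hypodermal proteins that carry the force of muscle on to the cuticle were also lower on average. Of 9 such genes 8 were tested, all 8 were below 0, with a median log2 fold change of -0.37, and 0 passed the test. Unadjusted p-values under 0.05 were found for 4 of them, where 1.97% of all genes tested were lower at that level. *mua-6*, an intermediate filament protein, had 41.6, 44.1 and 55.6 CPM in CGP37157 worms, against 64.3, 88.2 and 81.8 CPM in control worms, a log2 fold change of -0.73 with an edgeR adjusted p of 0.268. *ifb-1*, its partner, had 53.3, 67.0 and 77.4 CPM with CGP37157, against 91.2, 92.9 and 102.5 CPM in controls, a log2 fold change of -0.54. *let-805*, myotactin, had 73.9, 78.02 and 72.7 CPM in CGP37157 libraries, against 107, 108 and 92.3 CPM in control libraries, a log2 fold change of -0.45. In these 3 genes, and in *pat-12*, all CGP37157 values were below all control values, a separation seen in 3.69% of all genes tested. In *mua-3*, a transmembrane protein of the same structures, the groups overlapped. It had 28.4, 43.8 and 23.3 CPM with CGP37157 against 76.0, 34.3 and 47.9 CPM in controls.

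The basement membrane genes, which were counted without *unc-52*, had a median log2 fold change of -0.26 over 13 genes, 10 of them below 0, and 0 passed the test. The type IV collagens *emb-9* and *let-2* had log2 fold changes of -0.39 and -0.43, and *cle-1*, a collagen of type XVIII, one of -0.56 with an unadjusted p of 0.0260. In these 3 of the 13 genes all CGP37157 values were below all control values, where 3.69% of all genes tested were so separated. The 5 non-muscle relatives of the contractile genes, *nmy-1*, *nmy-2*, *mlc-4*, *mlc-5* and *act-5*, were all above 0, where 5868 of the 12385 genes tested were. Their log2 fold changes ran from 0.014 to 0.13, with standard errors of 0.21 to 0.38, and 0 passed the test. *act-5* is also counted among the intestinal genes below. The differences between these lists were not tested.

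Markers of other cell types were read from the same libraries, and 0 of them passed the test. The 12 genes of oocytes and embryos had a median log2 fold change of 0.084 and summed levels of 11701 to 16815 CPM in CGP37157 libraries and 10861 to 18570 CPM in control libraries. The 8 intestinal genes had a median of 0.15, and their sums, mostly of the yolk protein genes *vit-2* and *vit-6*, were 54000 to 59896 CPM with CGP37157 and 55260 to 101702 CPM in controls. The 8 neuronal genes had a median of -0.10 and sums of 456 to 571 CPM in CGP37157 worms and 483 to 674 CPM in control worms. In all 3 lists control 2 held the highest sum, as it did for the muscle genes and for all genes tested. Of 5 hypodermal markers 2 were tested, with a median of -0.093, and of 5 sperm markers 2 were, at 0.711 to 3.08 CPM, with a median of -0.033. The part of these tissues in the values of the muscle genes was not tested.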

How the data were processed

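RNA was sequenced from 6 libraries of whole N2 worms, 3 with 50 µM CGP37157 and 3 control. The deposited counts are whole numbers of reads per gene identifier that the authors did not normalize. Their submission notes name HISAT2, featureCounts, DESeq2 and edgeR, and the genome build is not given in the sources used here. The deposited tables also hold the authors' scaled counts and group means (score values), and the results of the authors' own comparisons (p-values, log2 fold changes and the fold as a ratio), none of which were used. Counts in both deposited tables were identical.

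Of the gene identifiers 44017 were paired with a symbol and 46817 were located in Ensembl release 115 of WBcel235, which also gave the exon lengths. No row was left out of the totals, and 0 columns of samples were unused. Genes were tested with edgeR 4.0.16 (glmQLFit and glmQLFTest, R 4.3.3) with TMM, condition only and Benjamini-Hochberg adjustment over the 12385 genes. The TMM scaling factors ran from 0.815 to 1.13. Levels are scaled CPM, and 95% intervals were derived from the test statistic. Adjusted p under 0.05 was the threshold. Replicates of one group differed by more than sampling noise, by a chi-square statistic of 42.9 or more per degree of freedom. The script was tested on simulated counts.

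Named genes were the most abundant gene and those with the largest log2 fold changes of each role group, the marker genes and those with an unadjusted p under 0.05, and the other members were named after their values were seen. The members, the lists and the tests were chosen with earlier results of these data known. Alternatives were other scalings, DESeq2 1.42.0, the likelihood ratio test, other filters, a replicate block and leaving out libraries.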

Additional observations from a re-analysis of the deposited data

How the results depend on the processing

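No muscle gene passed an adjusted p of 0.05 under any alternative, over 640 values, and the lowest adjusted p was 0.599. Their median log2 fold change lay between -0.24 and -0.31 under the other scalings, tools and filters, the replicate block and the length trend, was -0.36 without the actins, *mlc-1* and *mlc-2*, and ran from -0.48 to -0.19 with single libraries left out, with 33 to 38 genes below 0. The muscle genes with an unadjusted p under 0.05 numbered 2 with the replicate block (*myo-2* and *unc-52*), 0 with the length trend taken out, 0 without control 1 and CGP37157 library 2, 2 without control 2 and CGP37157 library 1, and from 0 (without CGP37157 library 3) to 9 (without control 3) with single libraries left out. Deviations from the group means correlated at 0.105, -0.508 and 0.387 between same-numbered libraries, which also share a suffix of unstated meaning in their labels, and the replicate block changed no call of a muscle gene. Over all genes, 29 were lower at an adjusted p under 0.05, against 17 with library sizes only, 60 with DESeq2, 66 with the likelihood ratio test, 66 without a filter, 12 without control 2 and CGP37157 library 1, and 12 to 34 with single libraries left out. The summed level differed by -2094 CPM, and by -3379 to -591 with single libraries left out, the smallest without control 2.

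The sign of *pat-3* and *unc-45* turned with the scaling, tool, filter or length trend. *pat-3* was at 0.0160 with RLE size factors and with DESeq2, 0.0068 with library sizes only and 0.0163 without a filter, and *unc-45* at -0.0042 with a CPM minimum of 5 and -0.0502 with the length trend taken out. Leaving out 1 library turned the sign of each gene in the next sentence but *atn-1*, whose sign turned without control 2 and CGP37157 library 1. With 1 or 2 libraries left out, the log2 fold changes ran from -0.32 to 0.092 for *mlc-1*, -0.34 to 0.090 for *act-1*, -0.26 to 0.20 for *act-2*, -0.25 to 0.051 for *tnt-3*, -0.84 to 0.12 for *tnt-4*, -0.46 to 0.21 for *unc-22*, -0.36 to 0.084 for *ttn-1*, -0.52 to 0.22 for *pat-2*, -0.19 to 0.22 for *pat-3*, -0.49 to 0.095 for *unc-112*, -0.36 to 0.10 for *pat-4*, -0.34 to 0.021 for *pat-6*, -0.37 to 0.071 for *atn-1* and -0.11 to 0.21 for *unc-45*. The cause was not tested. No muscle gene had fewer than 140 counts in a library. Settings that take out the length trend or 2 libraries were chosen after seeing the data.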
